A study of Mus musculus and Homo sapiens with 32 samples.

Results

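The genes described here encode ubiquitin-specific proteases (Usp) and subunits or partners of the proteasome (Psm). They were taken by symbol alone, as every gene whose name starts with Usp and a digit, or with Psm, a letter between a and g, and a digit. Of the 11200 gene symbols in the files of the genotype set, 83 met this rule, 49 of them Usp and 34 Psm. They held 325 of the 33473 regions in the table that compares the genotypes, 249 in 47 Usp genes and 76 in 27 Psm genes.

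The proteins act at opposite ends of 1 pathway. Ubiquitin, a small protein, is attached to other proteins as single units or chains. Ubiquitin-specific proteases cut it off again and so rescue, redirect or edit their targets, while the proteasome unfolds proteins that carry chains and cuts them into peptides. A barrel of alpha and beta subunits, the 20S core, holds the cutting sites, and the 19S cap recognises chains, removes them and feeds the chain-free protein inward. In embryonic stem cells, proteases such as Usp7, Usp9x and Usp22 are known to act on chromatin, survival and signalling proteins, and the proteasome is among the abundant housekeeping machines.

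The RNA modification N6-methyladenosine (m6A) was located along transcripts with m6A-CT, in which an antibody against m6A steers the transposase Tn5 to RNA paired with cDNA inside nuclei. Input libraries were tagmented without antibody. The genotype set comprised C57BL/6 Mettl3-/- (KO) mouse embryonic stem cells, which lack the catalytic subunit of the m6A writer by their label, and C57BL/6 wild-type embryonic stem cells, with 2 m6A-CT and 2 input libraries of each, 8 libraries in all, and an antibody from MilliporeSigma. The 5 mouse peak lists came from the embryonic stem cell line E14 with 5K, 25K or 100K nuclei per library, from EPSC (expanded potential stem cells) of the same line at 100K and CF1 mouse embryonic fibroblasts (MEF) at 100K, each with 2 m6A-CT and 2 input libraries and an antibody from Synaptic Systems. Antibody, strain and peak caller thus cannot be told apart between the sets. How the knockout was made, and whether a line is 1 clone, is not given in the sources used here.

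Every value below is 1 pooled column or 1 list per group. No replicate error can therefore be given, no test between replicates was possible, and intervals cover counting error only. Totals were 37532658 reads for Mettl3 KO m6A-CT, 51031598 for Mettl3 KO input, 39310394 for wild-type m6A-CT and 45090626 for wild-type input. The ribosomal RNA repeat Rn45s and the gene Lars2 took 54.5, 81.0, 36.5 and 76.4% of them in that order, so values in RPM (reads scaled to a common library total) move with this share. Without those reads, every log2 change between genotypes is higher by 0.48 for m6A-CT, by 0.31 for input and by 0.17 for their ratio. Mettl3 itself had 1 listed region, at 5.33 RPM in KO m6A-CT and 2.47 in KO input, against 1.5 in wild-type m6A-CT and 1.71 in wild-type input; its place relative to the deletion is not given, so it checks no label. Of 10 embryonic stem cell markers 9 had a listed region, with summed input of 851 RPM in KO and 1197 RPM in wild-type cells. Of 12 fibroblast markers 5 did, and Col1a1, Col1a2, Col3a1, Thy1, Postn, Lum and Dcn had none; nearly all of that list's 971 RPM in KO and 964 RPM in wild-type input came from Fn1. Of 7 endothelial and blood markers 3 had a region (9.21 RPM in KO, 17.6 RPM in wild-type input), and of 6 epithelial and trophectoderm markers 4 (4.53 RPM in KO, 5.26 RPM in wild-type input). The part of these shifts in the results below was not tested.

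Members with no region were Usp25 and Usp26, and Psma1, Psma2, Psmc1, Psmc2, Psmd3, Psmd6 and Psmd11, which were present through MeTPeak peaks. RefSeq lists 56 protein-coding Usp and 51 Psm symbols under the same rule. The 7 Usp and 17 Psm symbols not listed in these files, among them Psmb5, which carries a cutting site of the core, and the immunoproteasome genes Psmb8 and Psmb9, were not analysed here. By name alone the rule also took Usp6nl, an activator of Rab GTPases that cuts no ubiquitin, and Psmc3ip, a factor of meiotic recombination. The 5 regions that the table lists jointly for Gm20517 and Usp49 fell outside it, and counts of reads for Usp14, Usp34, Usp44 and Usp54 may hold reads of a gene on the opposite strand whose listed exons overlap theirs.

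In wild-type cells the protease transcripts were more often enriched in m6A-CT than the proteasome transcripts, with no test of the difference. A gene was called enriched when its m6A-CT RPM, summed over listed regions, was at least 2 times its input RPM. The count was 39 of 47 Usp genes (83.0%) and 9 of 27 Psm genes (33.3%), against 73.1% of all genes with a region. In Mettl3 KO cells 34 Usp genes (72.3%) and 8 Psm genes (29.6%) passed, against 45.5% of all genes. These counts rest on the library totals: without Lars2 and Rn45s in them, 7 Usp (14.9%) and 1 Psm genes passed in KO, against 9.09% of all genes, and 12 Usp (25.5%) and 0 Psm genes in wild-type cells, against 26.8% of all genes. On those totals the Usp share in wild-type cells was no longer above that of all genes. The median ratio of m6A-CT over input was 2.74 in KO and 3.68 in wild-type cells over Usp genes, 1.64 and 1.46 over Psm genes, and 1.85 and 3.31 over all genes. A wild-type ratio below 1 was found for 2 Usp genes, Usp3 and Usp21 (4.26%), and for 8 Psm genes (29.6%), against 10.1% of all genes.

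The classes also differ in how much of each gene the table lists, with a median of 2475 bp for Usp, 350 bp for Psm and 1614 bp for all genes. Among regions of up to 200 bp, the median wild-type ratio was 4.44 over 181 Usp regions and 1.72 over 63 Psm regions, against 3.06 over 21065 regions of all genes. In KO cells those medians were 2.77, 1.66 and 1.81. Among these short regions the Usp median was above the Psm median in both genotypes. Genes with many regions weigh more in such medians, and the part of listed length in the difference between the classes was not tested. Nearly all listed regions had passed the authors' false discovery rate (FDR) for a change between genotypes, so a gene's ratio covers its changed stretches and not its whole transcript.

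**Figure D1:**
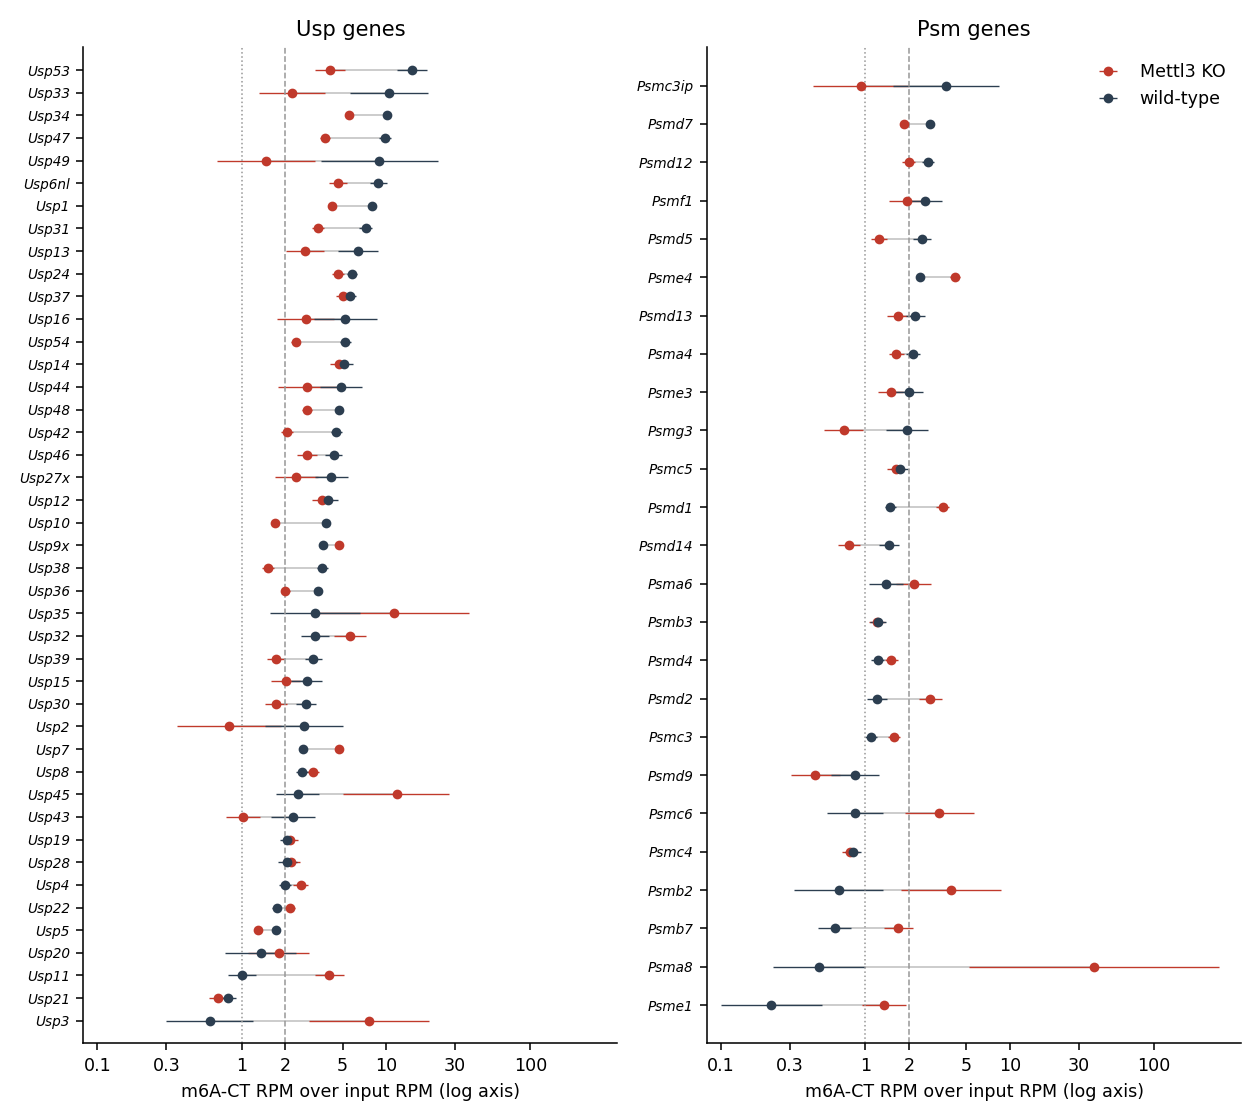
Ratio of m6A-CT RPM over input RPM, summed over the listed regions of each gene with at least 50 reads, on a log axis in Mettl3 KO and wild-type cells, with Usp genes on the left and Psm genes on the right. Lines are 95% counting intervals of 1 pooled value per genotype; dotted and dashed lines mark ratios of 1 and 2, and most Usp genes lie right of the dashed line in wild-type cells while most Psm genes lie left of it.

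Between genotypes, most regions of both classes had a lower ratio in KO cells, but the share differed between the classes. By the authors' deposited table at FDR 0.05 or less, 209 of 249 Usp regions (83.9%) and 49 of 76 Psm regions (64.5%) were lower in KO, against 88.8% of all regions. The authors' deposited table called the remaining 40 Usp regions (16.1%) and 27 Psm regions (35.5%) higher, against 11% of all regions. The median log2 fold change in the authors' deposited table was -1.29 for Usp, -0.79 for Psm and -1.35 for all regions. The Usp share lay near that of all regions, and the Psm share of higher regions was above it; no test was made of either.

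That table's log2 values lie below the plain RPM ratio by a median of 0.50, an offset of the authors' model seen over 3563 regions with at least 2000 reads. On the RPM scale the medians were -0.81 for Usp, -0.32 for Psm and -0.82 for all regions. Without Lars2 and Rn45s they were -0.64, -0.15 and -0.65, and the share of regions with a lower ratio in KO was 79.5% for Usp, 55.3% for Psm and 82.7% for all regions. The Psm median was above that of Usp and of all regions on each of the 3 scales.

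**Figure D2:**
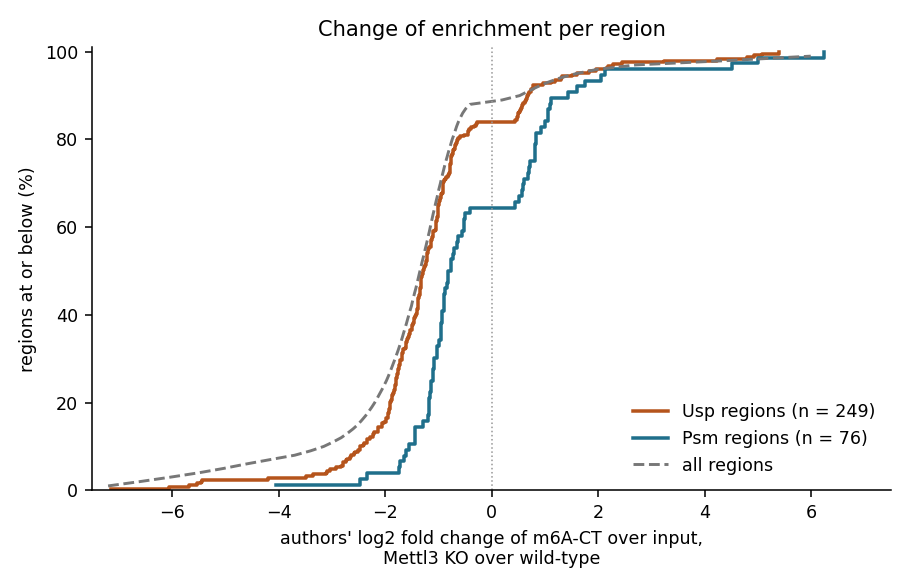
Cumulative share of regions (%) against the log2 fold change of m6A-CT over input, Mettl3 KO over wild-type, in the authors' deposited table, for 249 Usp regions, 76 Psm regions and the percentiles of all regions. The Usp line follows that of all regions, and the Psm line reaches 64.5% at 0.

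Among proteases of DNA repair and the cell cycle, Usp1 is known to remove ubiquitin from PCNA and FANCD2. Over 7 listed regions Usp1 had 97.6 RPM in KO m6A-CT and 23.1 in KO input, against 202 RPM in wild-type m6A-CT and 25.4 in wild-type input. Its ratio was 4.23 (95% counting interval 3.96 to 4.52) in KO and 7.94 (7.46 to 8.44) in wild-type cells. The input levels were close and the m6A-CT level was lower in KO. All 7 regions were lower in the authors' deposited table, with log2 changes of -0.88 to -1.83, and the 3′-most, at mm9 chr4:98600764-98602233, had -1.83 (FDR 8.11e-33). That 1470-bp region also had the highest wild-type ratio of the gene, 15.5, against 5.67 in KO cells. Usp45, which acts on the ERCC1 repair nuclease, had the reverse pattern in its single region, with 1.39 RPM in KO m6A-CT and 0.118 in KO input, against 2.54 RPM in wild-type m6A-CT and 1.04 in wild-type input. The authors' deposited table gives it a log2 change of 1.83 (FDR 0.0339). Its m6A-CT level was lower in KO, its input lower still, and the KO input held 6 reads. In bulk libraries, fewer transcripts per cell and fewer cells that make them cannot be told apart.

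Proteases that act on chromatin differed among themselves. Usp48, a nuclear protease that can cut ubiquitin from histone H2A, had 57.6 RPM in KO m6A-CT and 20.3 in KO input, against 183 RPM in wild-type m6A-CT and 38.9 in wild-type input, and all 7 regions were lower in the authors' deposited table. In RPM, the first region of Usp48 from the 5′ end had a ratio of 1.16 in KO and 1.08 in wild-type cells. The direction of that region thus turns with the scale. Usp7, which stabilises Mdm2 and p53 and works with Polycomb proteins, had 149 RPM in KO m6A-CT and 31.4 in KO input, against 157 RPM in wild-type m6A-CT and 59.5 in wild-type input. In RPM the m6A-CT levels of Usp7 were nearly equal. Its KO input was lower, by 0.92 on the log2 scale (95% counting interval -1.01 to -0.84). The authors' deposited table has 6 of its 7 regions higher in KO, with log2 changes of 0.48 to 0.69, and the last, of 2150 bp, lower at -0.39; on the RPM scale the interval of that last region includes 0. Usp22, the protease of the SAGA coactivator, had 36.6 RPM in KO m6A-CT and 17.0 in KO input, against 45.7 RPM in wild-type m6A-CT and 26.3 in wild-type input. Its 5′ region had a log2 change of 0.67 and its 3′ region -0.33 in the authors' deposited table, and the 3′ one 0.20 on the RPM scale, so its direction turns with the scale.

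Of the less abundant members of that group, Usp42 had 30.7 RPM in KO m6A-CT and 14.9 in KO input, against 55.9 RPM in wild-type m6A-CT and 12.4 in wild-type input. Its 10 regions were all lower in the authors' deposited table, with log2 changes of -1.01 to -2.39. Usp49, a histone H2B protease, rested on 69 reads in its own 225-bp region, with 0.346 RPM in KO m6A-CT and 0.235 in KO input, against 0.992 RPM in wild-type m6A-CT and 0.111 in wild-type input. The authors' deposited table gives it a log2 change of -3.09 (FDR 0.00463), and the 5 regions it shares with Gm20517 had changes of -1.07 to -1.71 there. Usp3, an H2A protease, rested on 68 reads, with 0.746 RPM in KO m6A-CT and 0.0980 in KO input, against 0.305 RPM in wild-type m6A-CT and 0.510 in wild-type input. It had the highest log2 change among genes with at least 50 reads in the most covered region, 3.23 in the authors' deposited table (FDR 0.00188). Over the whole chromatin group 25 of 33 regions were lower in the authors' deposited table, against 88.8% of all regions. All 8 that were higher, 6 of them in Usp7, had input RPM lower by at least 1.5-fold in KO, against 82.1% of all higher regions. With totals without Lars2 and Rn45s the share of all higher regions was 65.2%, and this group was not counted on that scale. Input is the divisor of the ratio, so lower input is partly built into a call of higher, here and in the groups below.

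The proteases of signalling and protein stability held genes that were lower throughout and genes with most regions higher. Usp34, a giant protease of Wnt signalling, had 121 RPM in KO m6A-CT and 21.7 in KO input, against 270 RPM in wild-type m6A-CT and 26.6 in wild-type input. Its ratio was 5.56 (5.20 to 5.93) in KO and 10.1 (9.55 to 10.8) in wild-type cells. All 24 regions were lower in the authors' deposited table, with log2 changes of -0.78 to -3.48. Usp10, a protease known to spare p53, had 333 RPM in KO m6A-CT and 197 in KO input, against 425 RPM in wild-type m6A-CT and 110 in wild-type input. Its 14 regions were all lower in the authors' deposited table, and its input was higher in KO, by 0.84 on the log2 scale.

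Usp9x, an X-linked protease that stabilises the survival protein Mcl1, had 233 RPM in KO m6A-CT and 49.5 in KO input, against 381 RPM in wild-type m6A-CT and 104 in wild-type input. By the authors' deposited table its first 9 regions from the 5′ end were higher in KO, with log2 changes of 0.44 to 0.78, and its last 4 were lower, with -0.29 to -0.73. Both m6A-CT and input were lower in KO, input by more. On the RPM scale 3 of those last 4 regions had counting intervals that include 0, and the 3′-most was lower. Usp11, a paralog of Usp4 and Usp15, was higher in all 4 of its regions, with 7.57 RPM in KO m6A-CT and 1.88 in KO input, against 3.71 RPM in wild-type m6A-CT and 3.70 in wild-type input. The authors' deposited table gives those regions log2 changes of 1.11 to 2.18. Usp4 had 22.5 RPM in KO m6A-CT and 8.78 in KO input, against 25.4 RPM in wild-type m6A-CT and 12.7 in wild-type input, and 3 of 5 regions were lower in the authors' deposited table.

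Other members of the group had fewer reads. Usp33, which acts on beta-arrestin and the VHL pathway, had 0.959 RPM in KO m6A-CT and 0.431 in KO input, against 2.54 RPM in wild-type m6A-CT and 0.244 in wild-type input, and a log2 change of -2.51 in the authors' deposited table. Its paralog Usp20 had 0.986 RPM in KO m6A-CT and 0.549 in KO input, against 0.661 RPM in wild-type m6A-CT and 0.488 in wild-type input. The authors' deposited table gives the 3 regions of Usp20 log2 changes of 5.39, 5.08 and -2.93 from 5′ to 3′, and the first 2 had no read in wild-type m6A-CT. Usp13, a close relative of Usp5, had 3.38 RPM in KO m6A-CT and 1.23 in KO input, against 6.23 RPM in wild-type m6A-CT and 0.976 in wild-type input. Its most covered region had a log2 change of -1.95 in the authors' deposited table, and 2 more of its regions had no input read in KO or in wild-type cells, which allows up to 0.0588 RPM in KO and 0.0665 RPM in wild-type input (3 reads). Over the group, 77 of 99 regions (77.8%) were lower in the authors' deposited table, against 88.8% of all regions, and 20 of the 22 higher ones (90.9%) had input lower by at least 1.5-fold, against 82.1% of all higher regions.

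Usp14 and Usp5 serve the proteasome most directly, Usp14 by trimming chains on the 19S cap and Usp5 by taking apart free chains. Usp14 had 22.5 RPM in KO m6A-CT and 4.76 in KO input, against 27.1 RPM in wild-type m6A-CT and 5.30 in wild-type input, and 2 of its 3 regions were lower in the authors' deposited table. The counting intervals of its 2 ratios, 4.73 (4.10 to 5.45) in KO and 5.11 (4.44 to 5.88) in wild-type cells, overlapped. Usp5 was lower in all 12 regions of the authors' deposited table, yet was hardly enriched, with ratios of 1.30 in KO and 1.72 in wild-type cells.

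Usp53 and Usp54 are related proteases, and Usp53 had the highest wild-type ratio of the Usp genes with at least 50 reads. Usp53 had 7.19 RPM in KO m6A-CT and 1.76 in KO input, against 23.3 RPM in wild-type m6A-CT and 1.55 in wild-type input, which gives ratios of 4.08 (3.21 to 5.18) in KO and 15.0 (11.8 to 19.1) in wild-type cells. Usp54 had 50.1 RPM in KO m6A-CT and 21.3 in KO input, against 72.7 RPM in wild-type m6A-CT and 14.0 in wild-type input. All 21 regions of this pair were lower in the authors' deposited table. Usp36 of the nucleolus and Usp39 of the spliceosome were likewise lower in 23 of 23 regions of the authors' deposited table. The share of lower regions there was 88.8% over all regions.

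Among proteases of membranes, Usp8, which sorts receptors at endosomes, had a single listed region of 19 exon blocks, with 37.4 RPM in KO m6A-CT and 12.1 in KO input, against 37.8 RPM in wild-type m6A-CT and 14.5 in wild-type input. Its log2 change was -0.28 in the authors' deposited table (FDR 0.0238) and 0.25 on the RPM scale, so its direction turns with the scale. Usp32, a Golgi protease, had 7.59 RPM in KO m6A-CT and 1.35 in KO input, against 7.25 RPM in wild-type m6A-CT and 2.26 in wild-type input. Only 1 of the 3 regions of Usp32 was lower in the authors' deposited table. Usp6nl, the Rab regulator, had 23.2 RPM in KO m6A-CT and 5.02 in KO input, against 50.1 RPM in wild-type m6A-CT and 5.68 in wild-type input, and all 5 regions were lower in the authors' deposited table. Outside the role lists, Usp31 was lower in 8 of 8 regions there, with 36.8 RPM in KO m6A-CT and 10.9 in KO input, against 71.2 RPM in wild-type m6A-CT and 9.87 in wild-type input. Usp2, known from the circadian clock, rested on 71 reads, with 0.240 RPM in KO m6A-CT and 0.294 in KO input, against 0.839 RPM in wild-type m6A-CT and 0.310 in wild-type input, and a log2 change of -2.22 in the authors' deposited table.

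The 20S core of the proteasome had few listed regions. Psma4, an alpha ring subunit, was lower in all 5 regions of the authors' deposited table, with 16.8 RPM in KO m6A-CT and 10.2 in KO input, against 22.4 RPM in wild-type m6A-CT and 10.6 in wild-type input. Psma6, also of the alpha ring, had 3.44 RPM in KO m6A-CT and 1.59 in KO input, against 2.80 RPM in wild-type m6A-CT and 2.02 in wild-type input. Its 5′ region had a log2 change of -0.99 and its 3′ region 1.75 in the authors' deposited table. In the beta ring, Psmb7, which carries a cutting site, had 4.18 RPM in KO m6A-CT and 2.47 in KO input, against 2.21 RPM in wild-type m6A-CT and 3.61 in wild-type input. Psmb2, a structural beta subunit, rested on 64 reads, with 0.613 RPM in KO m6A-CT and 0.157 in KO input, against 0.305 RPM in wild-type m6A-CT and 0.466 in wild-type input. Psma8, the alpha subunit of the testis, rested on 63 reads in 2 regions, both higher in the authors' deposited table. Psmb7 and Psmb2 had wild-type ratios below 1 (0.612 for Psmb7 and 0.655 for Psmb2), and their 3 regions were higher in the authors' deposited table, with log2 changes of 0.81 to 2.05. Psmb3, the beta gene with the most reads (1996), had 11.9 RPM in KO m6A-CT and 9.90 in KO input, against 13.7 RPM in wild-type m6A-CT and 11.2 in wild-type input. Its ratios overlapped, at 1.20 (1.05 to 1.36) in KO and 1.22 (1.08 to 1.38) in wild-type cells, while both of its regions were lower in the authors' deposited table, with log2 changes of -0.94 and -0.41.

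The 6 ATPase genes of the 19S cap, whose ring unfolds substrates, had 9 regions in 4 genes, and no gene of them reached a ratio of 2 in wild-type cells. Psmc5 had 11.3 RPM in KO m6A-CT and 6.98 in KO input, against 12.9 RPM in wild-type m6A-CT and 7.5 in wild-type input. Psmc6 had 1.15 RPM in KO m6A-CT and 0.353 in KO input, against 0.839 RPM in wild-type m6A-CT and 0.998 in wild-type input, and a log2 change of 1.61 in the authors' deposited table. The direction of this group rested on the scale, with 6 of 9 regions lower in the authors' deposited table and 2 of 9 lower in RPM without Lars2 and Rn45s. Psmc1 and Psmc2 had no region. Psmc1 had a MeTPeak peak of 2.68-fold in KO and one of 2.55-fold in wild-type cells, and Psmc2 had 2 in KO and none in wild-type cells.

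The other subunits of the 19S cap held 4 genes lower throughout, 2 higher throughout and 1, Psmd4, with both. Psmd7, the inactive partner of the protease Psmd14 in the lid, had 97.7 RPM in KO m6A-CT and 52.5 in KO input, against 86.7 RPM in wild-type m6A-CT and 31.2 in wild-type input. Its 7 regions were all lower in the authors' deposited table, with log2 changes of -0.64 to -1.29, while its m6A-CT level was slightly higher in KO and its input higher by 0.75 on the log2 scale (95% counting interval 0.66 to 0.84). Psmd14, which cuts chains off substrates at the entrance, had 5.17 RPM in KO m6A-CT and 6.76 in KO input, against 8.70 RPM in wild-type m6A-CT and 5.97 in wild-type input. All 4 regions of Psmd14 were lower in the authors' deposited table, and its ratio was 0.765 (0.641 to 0.912) in KO and 1.46 (1.24 to 1.71) in wild-type cells. Psmd13, a lid subunit, had 8.98 RPM in KO m6A-CT and 5.39 in KO input, against 12.8 RPM in wild-type m6A-CT and 5.79 in wild-type input. With Psmd12, the lid genes Psmd7, Psmd12, Psmd13 and Psmd14 had 20 of 20 regions lower in the authors' deposited table. The share over all regions was 88.8%. Over the 7 genes of this group with a region, 22 of 32 regions were lower there, and 20 in RPM without Lars2 and Rn45s. The most covered region of Psmd13 was at -0.10 in RPM, less than the 0.17 that leaving out those reads adds.

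The base scaffolds Psmd1 and Psmd2, which hold ubiquitin-binding and docking sites, went the other way. Psmd1 had 37.7 RPM in KO m6A-CT and 11.0 in KO input, against 30.2 RPM in wild-type m6A-CT and 20.4 in wild-type input. Psmd2 had 9.17 RPM in KO m6A-CT and 3.27 in KO input, against 8.50 RPM in wild-type m6A-CT and 7.05 in wild-type input. All 8 regions of the pair, 6 of them in Psmd1, were higher in the authors' deposited table, with log2 changes of 0.58 to 1.09. The pair was set apart by this direction, so its count has no background to be set against. Over the whole group of these 19S subunits 10 of 32 regions (31.2%) were higher there, against 11% of all regions. In RPM the interval of the m6A-CT change of Psmd2 includes 0 (-0.11 to 0.33 on the log2 scale). Input was lower in KO by 0.89 for Psmd1 and by 1.11 for Psmd2 on the log2 scale. Psmd4, a ubiquitin receptor, was split, with 19.6 RPM in KO m6A-CT and 13.0 in KO input, against 20.0 RPM in wild-type m6A-CT and 16.4 in wild-type input. Its first 2 regions from the 5′ end had log2 changes of -1.10 and -0.71 in the authors' deposited table, and its last 2, at mm9 chr3:94837840-94837939 and chr3:94837571-94837670, had 1.12 and 1.01.

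**Figure D3:**
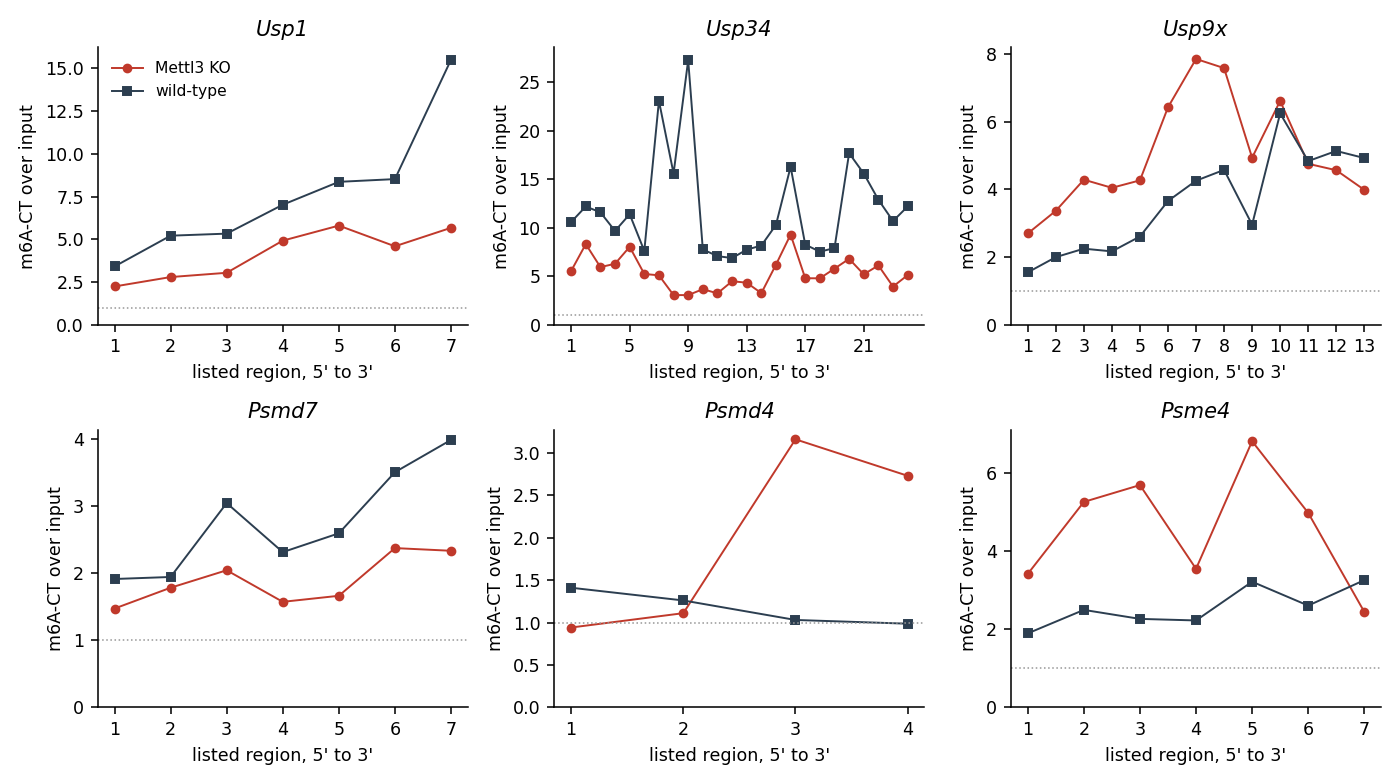
Ratio of m6A-CT RPM over input RPM in each listed region of Usp1, Usp34, Usp9x, Psmd7, Psmd4 and Psme4, numbered from 5′ to 3′, in Mettl3 KO and wild-type cells, with a dotted line at 1 and a separate scale for each gene. The KO line lies below the wild-type line throughout Usp1, Usp34 and Psmd7, above it in the first 6 of 7 regions of Psme4, and on both sides of it in Usp9x and Psmd4.

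Of the proteins that activate, inhibit or assemble the core, Psme4, a cap that helps degrade acetylated histones, had 7311 reads, the most of these groups. Psme4 had 57.7 RPM in KO m6A-CT and 13.9 in KO input, against 76.2 RPM in wild-type m6A-CT and 32 in wild-type input. The authors' deposited table has all but the last of its 7 regions higher in KO, with log2 changes of 0.45 to 1.06, and the last, of 50 bp, lower at -0.77. In RPM its m6A-CT level was lower in KO by 0.40 on the log2 scale. That is less than the 0.48 that leaving out Lars2 and Rn45s adds, so this direction turns with the scale. Its input was lower by 1.21 on the log2 scale (95% counting interval -1.34 to -1.08). Psme3, the nuclear activator, had 5.28 RPM in KO m6A-CT and 3.53 in KO input, against 4.91 RPM in wild-type m6A-CT and 2.46 in wild-type input, and a log2 change of -0.89 in the authors' deposited table. Psme1, an activator induced by interferon, had 1.68 RPM in KO m6A-CT and 1.25 in KO input, against 0.178 RPM in wild-type m6A-CT and 0.798 in wild-type input. Psme1 was higher in both library kinds and had a log2 change of 2.12 in the authors' deposited table (FDR 0.00776).

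Psmf1, an inhibitor of the core, had 3.01 RPM in KO m6A-CT and 1.55 in KO input, against 4.50 RPM in wild-type m6A-CT and 1.73 in wild-type input. The chaperones Psmd5 and Psmd9 help to build the base, and Psmg3 helps to build the core. Psmd5 had 12.2 RPM in KO m6A-CT and 9.74 in KO input, against 15.4 RPM in wild-type m6A-CT and 6.23 in wild-type input. Psmd9 had 0.879 RPM in KO m6A-CT and 1.96 in KO input, against 1.14 RPM in wild-type m6A-CT and 1.35 in wild-type input. Psmg3 had 1.63 RPM in KO m6A-CT and 2.29 in KO input, against 2.24 RPM in wild-type m6A-CT and 1.15 in wild-type input. All 8 regions of these 3 chaperones were lower in the authors' deposited table, with log2 changes of -1.03 to -2.35. Their input was higher in KO by 0.64 for Psmd5, 0.53 for Psmd9 and 0.99 for Psmg3 on the log2 scale. Psmg4, the remaining chaperone, was higher but had only 25 reads. Over the whole chaperone group 8 of 9 regions (88.9%) were lower in the authors' deposited table, near the share of all regions (88.8%). Psmc3ip, the recombination factor, rested on 56 reads, with 0.293 RPM in KO m6A-CT and 0.314 in KO input, against 0.560 RPM in wild-type m6A-CT and 0.155 in wild-type input, and a log2 change of -2.47 in the authors' deposited table.

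Across both classes, most regions that were higher in KO had less input RPM there, a count that moves with the scale. Input is the divisor of the ratio by which regions were called higher or lower. The shares below are thus partly built in, and only their distance from the share of all such regions describes the members. Of the regions higher in the authors' deposited table, 34 of 40 Usp (85.0%) and 21 of 27 Psm (77.8%) had input RPM lower by at least 1.5-fold, against 82.1% of all such regions. An m6A-CT level at least 1.5-fold higher was found in 16 Usp (40.0%) and 13 Psm regions (48.1%), against 57.6% of all. Of the regions lower in the authors' deposited table, m6A-CT was lower by at least 1.5-fold in 142 of 209 Usp (67.9%) and 16 of 49 Psm regions (32.7%), against 67.0% of all. These shares rest on the RPM scale: without Lars2 and Rn45s the last 3 were 38.3, 4.08 and 40.3%. Among the higher regions, input was then lower in 32 Usp (80%) and 17 Psm regions (63%), against 65.2% of all, and m6A-CT was higher in 23 Usp (57.5%) and 20 Psm regions (74.1%), against 80.5% of all. On that scale higher m6A-CT was more frequent than lower input in Psm regions, as it was over all regions. The Psm share with higher m6A-CT was below that of all regions, and the share with lower input was near it. In Usp regions lower input was the more frequent.

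**Figure D4:**
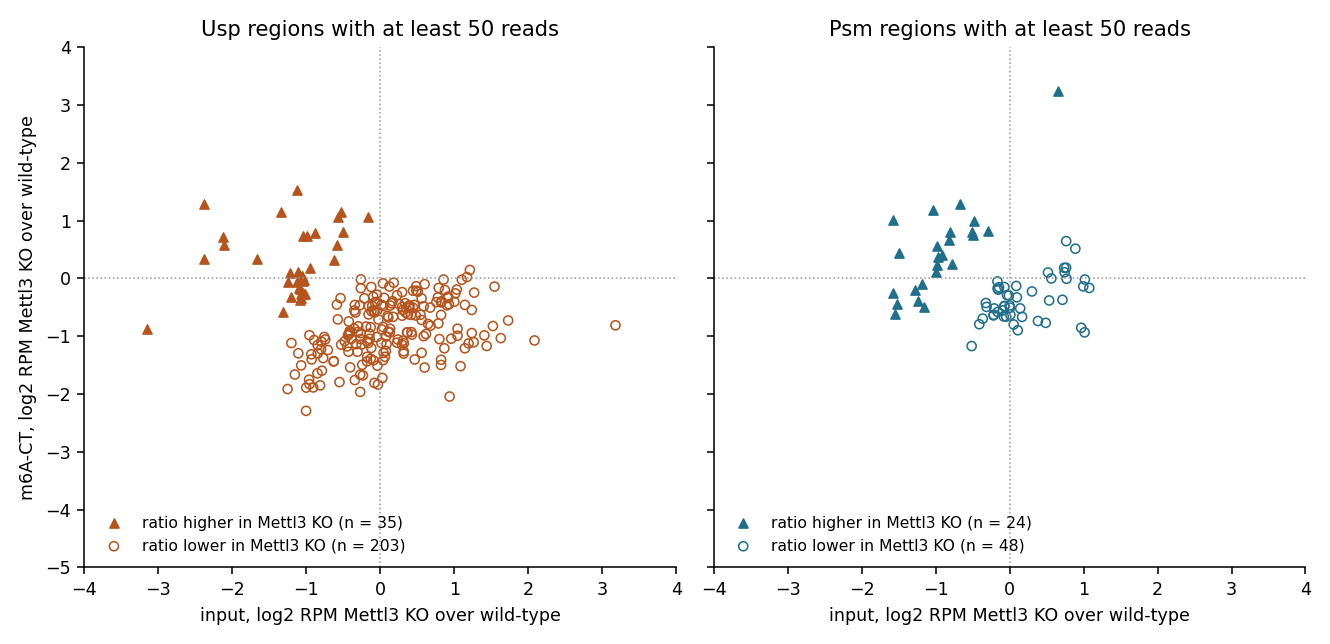
Log2 ratio of m6A-CT RPM (vertical axis) against log2 ratio of input RPM (horizontal axis), both Mettl3 KO over wild-type, for Usp regions (left) and Psm regions (right) with at least 50 reads in all. Filled triangles are regions whose ratio was higher in KO in the authors' deposited table and open circles are regions lower there; most triangles lie left of 0 on the input axis.

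Input gives the level of the transcripts themselves over the listed regions. Its median log2 change between KO and wild-type was -0.17 over 45 Usp genes, -0.11 over 27 Psm genes and -0.01 over all genes. Without Lars2 and Rn45s these medians were 0.14, 0.20 and 0.30, since that scaling adds the same 0.31 to every gene and leaves the gaps between classes as they were. Input was lower by at least 1.5-fold in 14 Usp (31.1%) and 6 Psm genes (22.2%), against 20.4% of all genes, and higher by as much in 7 Usp (15.6%) and 6 Psm genes (22.2%), against 22.5% of all genes. In RPM the Usp share with lower input was above the background and the Psm shares were close to it, with no test of either. These counts rest on the scale too, since adding 0.31 to every gene moves genes across both limits. They were not repeated without Lars2 and Rn45s, so the excess of lower over higher Usp genes is given for RPM alone.

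The position of the enrichment along the gene was compared in genes with at least 4 regions. The wild-type ratio of the last listed region exceeded that of the first in 21 of 22 Usp genes (95.5%) and 7 of 9 Psm genes (77.8%), against 85% of all 3021 such genes. The exceptions were Usp7, Psmd1 and Psmd4. In Usp36 the first region had a ratio of 0.365 in KO and 0.972 in wild-type cells, and the last 3.48 in KO and 6.45 in wild-type cells. In Usp42 the first region had 0.680 in KO and 1.76 in wild-type cells, and the last 4.26 in KO and 10.2 in wild-type cells. The last region was the longest of the gene in 16 of these Usp genes (72.7%) and 2 of the Psm genes (22.2%), against 63.5% of all such genes, and no exon or untranslated region was assigned, since the mm9 annotation was not used here. Of genes with at least 2 regions, 17 of 34 Usp genes were lower in all of them, 1 was higher in all and 16 were mixed in the authors' deposited table, against 10, 4 and 4 of 18 Psm genes. Over all 6052 such genes the shares were 78.9% lower in all, 6.38% higher in all and 14.7% mixed. Mixed Usp genes (47.1%) were above that background, with no test made. Genes with more regions have more room for both directions. Genes with a region had a median of 3 regions in Usp, 2 in Psm and 2 over all genes. The part of region number in the mixed share was not tested.

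MeTPeak, run by the authors once per genotype, gave a different measure of the same cells. A peak was listed for 33 Usp genes in KO and 34 in wild-type cells (67.3 and 69.4%), and for 21 Psm genes in KO and 13 in wild-type cells (61.8 and 38.2%). Over all genes the shares were 41.4% in KO and 52.1% in wild-type cells. In both genotypes 31 Usp and 13 Psm genes had a peak. Usp11 and Usp21 had one in KO alone, and Usp26, Usp44 and Usp53 in wild-type cells alone. Psma2, Psma6, Psmb7, Psmc2, Psmc3, Psmd4, Psmd6 and Psme1 had a peak in KO alone (23.5% of Psm genes) and no Psm gene had one in wild-type cells alone, against 6.09 and 16.8% of all genes. The highest fold of these 8 genes lay between 1.55 and 4.18. With a fold of at least 4, 7 Psm genes had a peak in KO and 7 in wild-type cells (20.6% each), and 28 Usp genes in KO and 33 in wild-type cells (57.1 and 67.3%), against 30.7% of all genes in KO and 44.4% in wild-type cells.

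More peaks were listed in KO for both classes. The number of peaks was 182 in KO and 124 in wild-type cells for Usp, and 30 in KO and 19 in wild-type cells for Psm, against 20482 in KO and 20055 in wild-type cells over the whole lists. Usp31 had 15 in KO and 16 in wild-type cells, Usp32 had 12 and 10, Usp54 had 12 and 8, and Usp45 had 11 and 9, the first number being that of KO in each pair. Psma4, Psma6, Psmc2 and Psmc5 had 2 in KO each, and Psme3 had 3 in wild-type cells, the most of any Psm gene. The median exonic length of a Usp peak was 250 bp in KO and 349.5 bp in wild-type cells, and Usp34 had 2 peaks of 4301 and 5900 exonic bp in KO and 1 of 11150 bp in wild-type cells.

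For genes with a peak in both genotypes, the authors' highest fold per gene was lower in KO for 26 of 31 Usp and 4 of 13 Psm genes, against 76.7% of all such genes. Usp1 had 11.8-fold in KO and 34.5-fold in wild-type cells, and Usp34 had 18.0-fold in KO and 32.3-fold in wild-type cells. Psmd7 had 3.86-fold in KO and 9.36-fold in wild-type cells. Psme4 was nearly level, with 9.25-fold in KO and 9.33-fold in wild-type cells, and the proteases Usp7 (13.3-fold in KO, 11.7-fold in wild-type cells) and Usp9x (15.3-fold in KO, 13.6-fold in wild-type cells) were higher in KO. The lid subunit Psmd11, which had no region, had 2 peaks in each genotype, at most 4.25-fold in KO and 3.23-fold in wild-type cells.

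Peaks of the 5 mouse lists were given to a gene when they met at least 1 bp of an exon block that the genotype files list for it. Of the 49 Usp genes, 13 had a peak in E14 at 5K nuclei, 12 at 25K and 16 at 100K, against 14.9, 9.93 and 19% of all 11050 genes with a block. In EPSC 23 Usp genes had a peak and in MEF 33, against 27.4 and 39.8% of all genes. The 34 Psm genes gave 3, 3 and 4 at 5K, 25K and 100K, 6 in EPSC and 5 in MEF. As shares this is 26.5, 24.5, 32.7, 46.9 and 67.3% of Usp genes and 8.82, 8.82, 11.8, 17.6 and 14.7% of Psm genes, so Usp lay above the share of all genes and Psm below it in each of the 5 lists. The lists differ in length, between 3923 peaks at 25K and 38205 in MEF. With only as many of the strongest peaks as the shortest list holds, the Usp counts were 10, 12, 7, 10 and 6 in the same order of lists, and the Psm counts 3, 3, 2, 1 and 0. As shares these were 20.4, 24.5, 14.3, 20.4 and 12.2% for Usp and 8.82, 8.82, 5.88, 2.94 and 0% for Psm, against 12.9, 9.93, 9.87, 10.8 and 6.92% of all genes.

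Listed length differed between the classes. The median listed block length was 3426 bp for Usp, 732 bp for Psm and 2006 bp for all genes. Per kb of block, E14 at 100K had 0.405 peaks in Usp, 0.153 in Psm and 0.151 in all genes. EPSC had 0.658, 0.408 and 0.267 peaks per kb, and MEF 1.91, 1.12 and 0.793, in the order Usp, Psm, all genes. E14 at 5K had 0.0894, 0.102 and 0.072 peaks per kb, and at 25K 0.105, 0.102 and 0.0538, with only 4 Psm peaks in each. Per kb, therefore, Psm genes were at or above the level of all genes in each of the 5 lists. They lay above Usp at 5K, near it at 25K, and below it at 100K and in EPSC and MEF. Psme4 alone gave 22 of the 44 Psm peaks in MEF. Of the Usp peaks, Usp34 and Usp9x gave 28 and 18 of 77 in E14 at 100K. The same 2 genes gave 32 and 33 of 125 in EPSC, and 59 and 40 of 364 in MEF. The rates per kb thus lean on few genes in both classes.

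**Figure D5:**
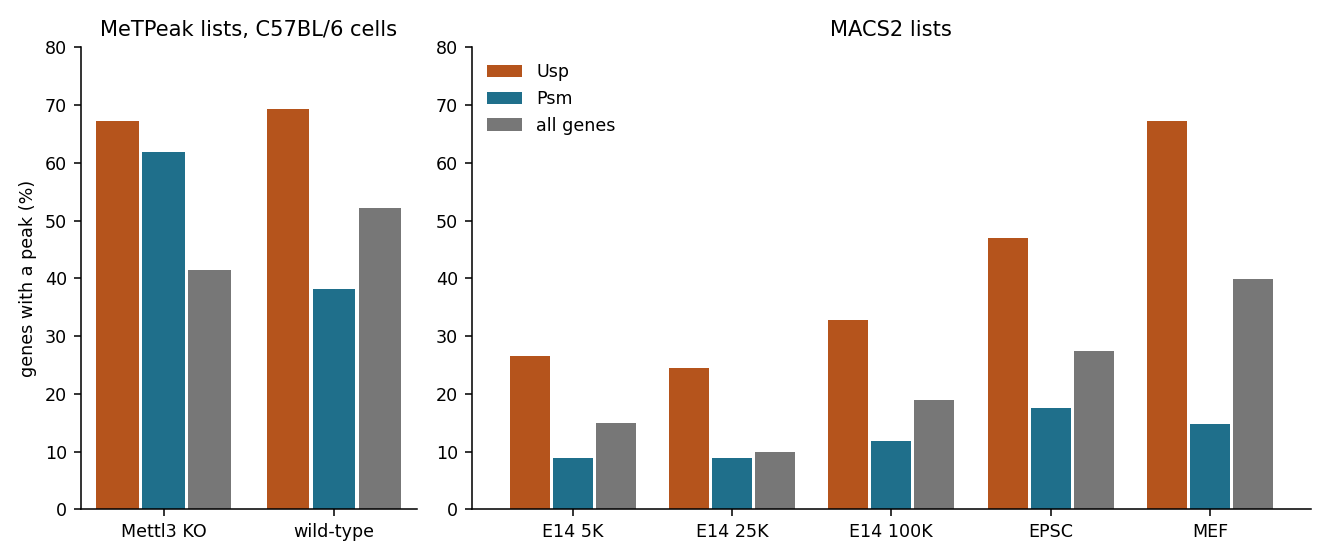
Percentage of Usp genes, Psm genes and all genes with at least 1 peak, in the MeTPeak lists of Mettl3 KO and wild-type cells (left) and in the MACS2 lists of E14 at 5K, 25K and 100K nuclei, EPSC and MEF (right). Each bar is 1 list; the Psm bar is 61.8% in KO and 38.2% in wild-type cells, and lies below that of all genes in each of the 5 MACS2 lists.

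Usp1, Usp48, Usp6nl, Usp7, Usp9x and Psme4 had a peak in each of the 5 lists. Usp9x had 2, 3 and 18 peaks in E14 at 5K, 25K and 100K, 33 in EPSC and 40 in MEF, and Usp34 had 0, 5, 28, 32 and 59 in the same order. Psme4 had 2, 2, 2, 7 and 22. In Usp1 the peaks of E14 at 25K and 100K, EPSC and MEF all reached into its last listed region, where that of E14 at 100K lay at mm9 chr4:98600735-98601228 with the authors' fold of 6.02. In C57BL/6 cells the region around that stretch had the highest wild-type ratio of the gene.

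Cell types at 100K nuclei were compared by the genes with a peak. Of Usp genes, 13 had one in E14, EPSC and MEF alike, 11 in MEF alone and 4 (Usp16, Usp22, Usp26 and Usp44) in EPSC alone of these 3 lists. These are 26.5, 22.4 and 8.16% of Usp genes, against 13.6, 17 and 3.46% of all genes. Usp27x, Usp28, Usp30, Usp39, Usp4, Usp40, Usp42, Usp46, Usp5, Usp19 and Usp25 had a peak in MEF and in neither E14 nor EPSC at 100K. Of the genes named for EPSC or MEF alone, Usp22, Usp25 and Usp42 had a peak in E14 at 5K, and Usp39 had one at 25K. Of Psm genes, Psmd1 and Psme4 had one in all 3, Psmd7 in E14 and EPSC, Psmd4 in E14 and MEF, Psmc1, Psmd12 and Psmd13 in EPSC alone, and Psmd2 and Psmd3 in MEF alone. Neither expression in these cells nor depth of the lists is known, so what sets a gene without a peak apart was not tested. Blocks come from C57BL/6 embryonic stem cells, and peaks elsewhere in a gene were not counted.

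Other genes of the pathway gave a frame for both classes. Of 74 listed genes for ubiquitin, its activating and conjugating enzymes, other deubiquitinases, shuttle factors and regulators, 60 were in the files and 53 had a region. Of their 199 regions, 169 (84.9%) were lower in KO and 30 (15.1%) higher in the authors' deposited table, against 88.8 and 11% of all regions. Enrichment of at least 2 was found for 27 of 53 in KO (50.9%) and 32 in wild-type cells (60.4%). Over all genes the shares were 45.5% in KO and 73.1% in wild-type cells. These counts too rest on the library totals. Uba1, the main ubiquitin-activating enzyme, had 166 RPM in KO m6A-CT and 90.6 in KO input, against 192 RPM in wild-type m6A-CT and 171 in wild-type input. Nfe2l1, the factor that induces proteasome genes when degradation falls short, had 148 RPM in KO m6A-CT and 65.6 in KO input, against 615 RPM in wild-type m6A-CT and 99.5 in wild-type input. Its most covered region had a log2 change of -1.92 in the authors' deposited table.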

How the data were processed

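The submitters' processing notes name Trim Galore, STAR 2.7.2, MACS2 and the mouse build mm9, with no order of use; MeTPeak and exomePeak2 are named in the sample descriptions, without version or settings. The exomePeak2 table was deposited with RPM in 1 pooled column per genotype and library kind, which came back as whole reads to within 0.01 reads for 100% of values. It was also deposited with a log2 fold change, a p-value and an FDR per region. The MeTPeak lists were deposited with a fold, log10 of the FDR, a score that repeats the p-value and other columns for exon blocks. The MACS2 lists were deposited with a score, a fold over background, −log10 of p and q with −log10 q of at least 10, and other columns for the summit's place.

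From these, reads per gene were summed over listed regions, and ratios were given 95% counting intervals from the reads. In ratios of m6A-CT over input, an input with no read was taken at 3 reads, which is 0.0588 RPM in KO and 0.0665 RPM in wild-type input. An m6A-CT column with no read stayed at 0, and log2 changes in RPM used no floor. For m6A-CT, 3 reads would be 0.0799 RPM in KO and 0.0763 RPM in wild-type cells. Starts were taken to count from 0, since 772 genes' spans then equal the RefSeq length and 120 otherwise, and are printed counting from 1. Interval and ratio code was tested on simulated data. Whether neighbouring regions share reads is not stated. Python 3.11.15 with pandas 2.3.3, numpy 2.4.6 and matplotlib 3.10.9 was used.

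Members, lists and rules were chosen with earlier results of these data known. Genes named with values are, per class, those with the 8 lowest and 6 highest log2 fold changes of the most covered region (FDR 0.05 or less, at least 50 reads), the 4 with most MeTPeak peaks in each genotype, and a short list by name; examples beyond it were chosen after their values were seen. The HEK293T list was not used, since human gene positions were not at hand. No genome of build mm9 was used, so no sequence is shown.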

Additional observations from a re-analysis of the deposited data

How the results depend on the processing

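Of 106 alternative values for 26 counts and medians, 70 stayed within 1.5 times the count, or within 0.1 for a median, and 2 changed sign. The 2 were the median input changes without Lars2 and Rn45s (0.14 for Usp, 0.20 for Psm, 0.30 for all genes), which follow by construction, as that scaling adds 0.31 to every gene. In RPM the median log2 changes were -0.81 (Usp) and -0.32 (Psm), without Lars2 and Rn45s -0.64 and -0.15, and with 1 region per gene -1.13 and -0.63. With 1 region per gene 41 Usp and 18 Psm regions were lower and 6 and 9 higher, which has fewer regions by construction. Without Lars2 and Rn45s in the totals, 7 Usp and 1 Psm genes were enriched in KO and 12 and 0 in wild-type cells, against 933 and 2752 of all genes. At a ratio of 3, 19 Usp and 5 Psm genes were enriched in KO, against 2470 of all 10268 genes with a region. In wild-type cells 29 Usp genes and 1 Psm gene passed that ratio, against 5635 of all genes. At 1.5, 39 Usp and 17 Psm genes were enriched in KO, against 6365 of all genes. In wild-type cells 43 Usp and 12 Psm genes passed 1.5, against 8434 of all genes. With a MeTPeak fold of at least 4, 7 Psm genes had a peak in KO and 7 in wild-type cells, against 3439 and 4970 of all genes. With −log10 q of at least 20, Usp counts were 4, 4, 7, 12 and 24 in E14 at 5K, 25K and 100K, EPSC and MEF. Psm counts were 2, 1, 2, 2 and 4 in that order, against 655, 438, 975, 1653 and 3243 of all genes. At equal list length, Usp counts were 7, 10 and 6 and Psm counts 2, 1 and 0 in E14 at 100K, EPSC and MEF. Over all genes these counts were 1091, 1197 and 765. With introns included, an alternative chosen after seeing the data, 5 Psm genes had a peak at 5K, against 1865 of all genes. Leaving out Usp6nl, Usp17lb and Psmc3ip, also added later, moved none of the counts of lower, higher or enriched members by over 1.5 times; it was not run for peaks. The cause of these shifts was not tested beyond what each alternative's construction gives. No paired analysis was possible because the deposited columns are pooled and carry no replicate, and for the same reason no replicate could be left out. Depth limits Usp18, Usp17lb, Usp29, Usp40, Psmg4 and Psmb10, which had 8 to 40 reads.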
